A study of Bubalus bubalis with 12 samples.

Results

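LOC102408976, LOC102408665 and LOC102407663 are 3 neighbouring genes, taken from the 34037 genes of an FPKM table of ruminal wall. LOC102408976 and LOC102407663 are annotated as of the interferon alpha-inducible protein 27 (IFI27) kind, and LOC102408665 is counted with them by its position. All 3 were found by their gene names. They were selected on the levels they showed in these same animals, where all 3 had a higher mean in treated than in control buffaloes. The difference between the diets is therefore described for them without a test. Ruminal wall was collected at slaughter from 12 Italian Mediterranean dairy buffaloes, about 8 years old on average, after a feeding trial of 60 days that followed 14 days of adaptation. The control group (n = 6) received a total mixed ration (TMR), and the treated group (n = 6) received TMR + green feed, in which fresh ryegrass made up about 30% of the diet. Both diets had equal nitrogen and energy, but the treated ration also held less corn silage and alfalfa hay and no soybean meal, so that ryegrass and these ingredients cannot be told apart. Each animal gave 1 stranded total RNA library, and no animals were pooled.

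Proteins of the IFI27 family are small and hydrophobic, and several of them sit in mitochondrial membranes. In other mammals several of the genes lie side by side on 1 chromosome. IFI27 is switched on when type I interferon binds its receptor and signals through JAK kinases and transcription factors such as IRF9 to interferon-responsive promoters. IFI27 transcript is widely read in blood and epithelia as a marker of exposure to interferon, while some of its relatives respond weakly or not at all. The ruminal wall, where a stratified epithelium faces the microbial contents of the rumen, is a place where such barrier genes are of interest.

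The study's gene annotation gives LOC102408976 the name of IFI27 itself, a mitochondrial protein, and LOC102407663 the name of IFI27-like protein 2. No protein name for LOC102408665 was found in the sources used here, so its place in the family rests on its position. In the RefSeq order of the NDDB_SH_1 assembly, used here only for which genes neighbour each other, LOC102408976 is followed by a long non-coding RNA, LOC102408665, LOC102409849 and LOC102407663. PPP4R4 and SERPINA10 lie on one side of this stretch together with LOC102409513, and DDX24, OTUB2 and CCDC197 lie on the other. Reads with a low mapping quality were dropped before counting, and reads that near-identical copies share cannot be told apart. The levels below are therefore those of the reads that could be placed.

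FPKM are fragments per length of the gene, relative to all fragments counted in that animal. Levels of different genes are set side by side on this scale, but it does not correct for reads that could not be placed. Between 10531541 and 12948372 fragments per animal were counted. The reads of each gene were recovered from the steps of its FPKM, and a 95% exact Poisson interval of those reads is given where it matters. Such intervals cover counting error only. In bulk tissue, a higher level in every cell and a larger share of the cells that express a gene cannot be told apart.

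LOC102408976, the gene named IFI27, was the lowest of the 3. In control animals 1 to 6 its FPKM were 1.24, 1.58, 1.54, 0.612, 0.905 and 0.843. In treated animals 1 to 6 they were 4.73, 5.16, 0.739, 5.33, 1.40 and 2.96. Treated animals 1, 2, 4 and 6 lay above every control animal, while treated animals 3 and 5 lay within the control range. The control values rested on 7 to 18 reads, and the 95% interval of the lowest control, 0.246 to 1.26 FPKM, overlapped that of the highest, 0.922 to 2.54 FPKM. The control animals were thus not separable at this depth, whereas the interval of treated animal 4, with 58 reads, ran from 4.05 to 6.90 FPKM and that of treated animal 3, with 8 reads, from 0.319 to 1.46 FPKM. The treated animals consequently differed among themselves by more than counting error. The mean was 1.12 ± 0.397 FPKM (SD, n = 6) among controls and 3.39 ± 1.99 FPKM (SD, n = 6) among treated animals, a ratio of 3.02. On the log2(FPKM + 0.01) scale the difference of the means was 1.35 with a standard error of 0.52.

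LOC102408665, the member without a protein name, varied widely in both groups. Its FPKM in control animals 1 to 6 were 6.98, 0.807, 3.53, 2.46, 6.27 and 2.05. In treated animals 1 to 6 they were 1.71, 10.1, 8.0, 4.88, 10.5 and 18.2. Treated animals 2, 3, 5 and 6 exceeded the highest control, and treated animal 1 was lower than 5 of the 6 controls. Already within the control group the 95% interval of animal 2, 0.348 to 1.59 FPKM from 8 reads, was clear of that of animal 1, 5.47 to 8.78 FPKM from 73 reads. The means were 3.68 ± 2.45 FPKM (SD, n = 6) and 8.91 ± 5.65 FPKM (SD, n = 6) in control and treated animals, respectively, a ratio of 2.42. The difference of the mean log2 values was 1.28 with a standard error of 0.67. It was 0.91 without control replicate 2, the lowest animal, and 1.69 without treated replicate 1.

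LOC102407663, the gene named IFI27-like protein 2, was the most abundant member and the one with the most uneven treated group. Its FPKM in control animals 1 to 6 were 8.63, 5.14, 7.57, 7.17, 1.61 and 5.32. In treated animals 1 to 6 they were 7.01, 36.9, 6.16, 2.77, 36.6 and 53.6. The treated group thus fell into 2 sets, with animals 2, 5 and 6 far above every control and animals 1, 3 and 4 inside the control range. Treated animals 2, 5 and 6 held 25.4%, 24.8% and 39.0% of the reads of this gene in the treated group. Their lowest 95% bound, 34.2 FPKM, was well above the upper bound of the highest control, 9.82 FPKM, so counting error does not cover this gap. The means were 5.91 ± 2.49 FPKM (SD, n = 6) for controls and 23.8 ± 21.3 FPKM (SD, n = 6) for treated animals. Their ratio of 4.03 was carried by those 3 animals, whereas the difference of the mean log2 values was 1.45 with a standard error of 0.80. That difference was 1.07 without treated replicate 6 and 1.92 without treated replicate 4.

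**Figure D1:**
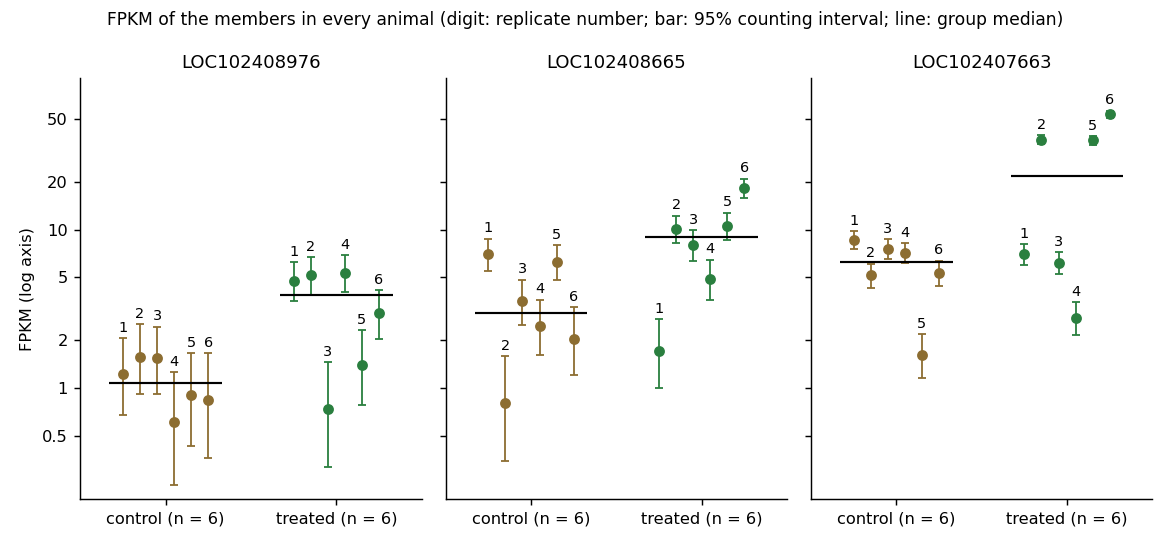
FPKM (log axis) of LOC102408976, LOC102408665 and LOC102407663 in each of the 6 control and 6 treated animals. Points are animals with their replicate number, bars are 95% exact Poisson intervals of the reads, and horizontal lines are group medians; 4, 4 and 3 treated animals, respectively, lie above the highest control, and none lies below the lowest control.

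The plot of FPKM by animal shows that the animals above the controls were not the same for each gene. Treated animals 2 and 6 exceeded the highest control in all 3 genes, and treated animal 5 did so in LOC102408665 and LOC102407663. Treated animals 1 and 4 did so only in LOC102408976, and treated animal 3 only in LOC102408665. By FPKM, every treated animal was therefore above all controls in at least 1 member, but only 2 of 6 were in all members. Some of these places were within counting error. In LOC102408665 the 95% intervals of treated animals 2, 3 and 5 began at 8.21, 6.35 and 8.62 FPKM. They overlapped that of control animal 1, 5.47 to 8.78 FPKM. In LOC102408976 the interval of treated animal 6, 2.05 to 4.14 FPKM, overlapped that of control animal 2, 0.922 to 2.54 FPKM. Of the 12742 genes tested over the whole table, 921 (7.23%) had 3 or more treated animals above the highest control, a count that the choice of these genes already fixes for the members. No treated animal was below the lowest control for any of the 3 genes. The ratios of the medians were 3.59 for LOC102408976, 3.02 for LOC102408665 and 3.49 for LOC102407663. For LOC102407663 the treated median of 21.8 FPKM fell in the gap between animal 1, with 7.01 FPKM, and animal 5, with 36.6 FPKM. No treated animal was near it, so that ratio does not describe a typical animal.

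The spread between animals fed the same diet was large for each member. The standard deviation of the log2 value within groups was 0.91 for LOC102408976, 1.16 for LOC102408665 and 1.39 for LOC102407663, against a median of 0.36 for all genes tested. These spreads were larger than those of 93.4%, 96.6% and 97.8% of the genes tested. In the control group alone, fed TMR only, the spread of LOC102408665 was still larger than that of 97.0% of genes and that of LOC102407663 larger than that of 94.1%. For LOC102408976 the corresponding share in the control group was 78.3%. Low read numbers add to the spread of a gene, and LOC102408976 had a lower mean level than most genes, since only 21.8% of the genes tested had a lower mean FPKM. LOC102407663, in contrast, was above 68.1% of the genes in mean FPKM.

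The summed level of the 3 genes was 10.7 ± 3.51 FPKM (SD, n = 6) in the control group, with a range from 7.53 to 16.8 FPKM. In the treated group it was 36.1 ± 26.1 FPKM (SD, n = 6), with a range from 13.0 to 74.8 FPKM. Treated animals 2, 5 and 6 had sums of 52.1, 48.5 and 74.8 FPKM, while treated animals 1, 3 and 4 had 13.5, 14.9 and 13.0 FPKM and so stayed within the control range. The mean share of LOC102407663 in the sum was 55.4% in both groups, with a standard deviation of 19.4 percentage points among controls and 21.3 among treated animals. The composition of single animals nevertheless differed. LOC102408665 led in control animal 5 with 71.3% of the sum and in treated animal 3 with 53.7%, and LOC102408976 led in treated animal 4 with 41.1%. In the other 9 animals LOC102407663 was the leading member. The share of LOC102408976 ranged from 5.98% to 21.0% among controls and from 2.89% to 41.1% among treated animals.

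**Figure D2:**
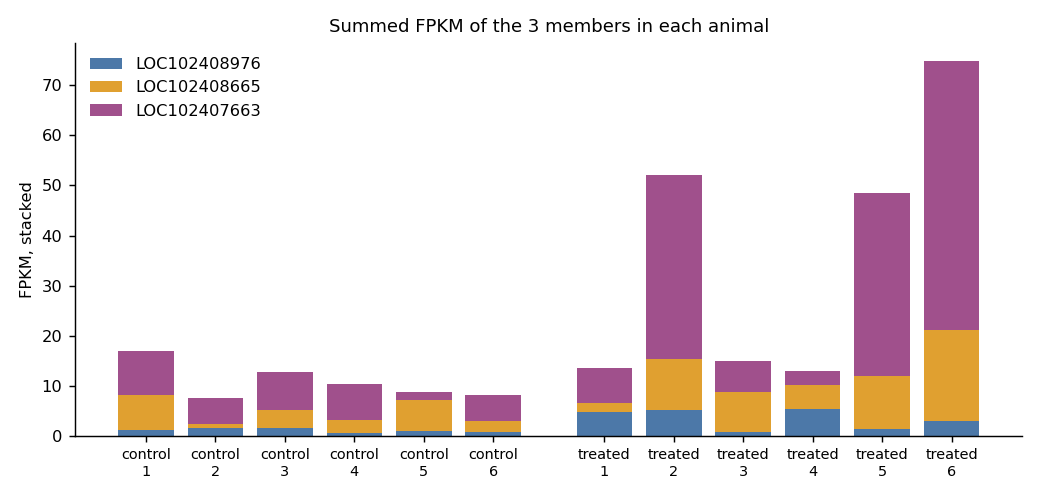
Stacked FPKM of LOC102408976, LOC102408665 and LOC102407663 in each of the 12 animals, with 1 bar per animal. Treated animals 2, 5 and 6 reach 52.1, 48.5 and 74.8 FPKM, mostly from LOC102407663, while the other 9 animals stay between 7.53 and 16.8 FPKM.

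The order of the members by FPKM was LOC102408976, LOC102408665 and LOC102407663, from low to high, in 7 of 12 animals. In control animal 2 and treated animal 1, LOC102408665 fell to the lowest place. In control animal 5 and treated animal 3 it took the highest place instead. The order was turned around in treated animal 4, where LOC102408976 reached 5.33 FPKM and LOC102407663 only 2.77 FPKM. In that animal the levels of LOC102408976 and LOC102408665 did not differ beyond counting error, with 95% intervals of 4.05 to 6.90 FPKM and 3.61 to 6.45 FPKM. The exchanges in control animal 2, between LOC102408665 (0.348 to 1.59 FPKM) and LOC102408976 (0.922 to 2.54 FPKM), and in treated animal 3, between LOC102408665 (6.35 to 9.96 FPKM) and LOC102407663 (5.23 to 7.20 FPKM), were also within counting error. The stacked bars show these exchanges of the leading member.

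Whether the members moved together from animal to animal was tested within the groups, which does not use the difference between the diets. The 3 pairs were compared on log2(FPKM + 0.01), by two-sided exact permutation over the 720 pairings within a group, and over all 12 animals after the group means were taken away, by 100000 permutations within groups. P-values were adjusted by Benjamini-Hochberg over the 3 pairs. No pair passed the test. For LOC102408665 and LOC102407663, Pearson's r over 12 animals was 0.39 (permutation p = 0.246, adjusted p = 0.650) and Spearman's rho was 0.60 (permutation p = 0.0609, adjusted p = 0.183). Without the 2 animals farthest from the median of LOC102408665, r was 0.42. Control replicate 5 weighed on this pair, since r was 0.62 without it (permutation p = 0.0317).

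Within the treated group the same pair had r = 0.70 (exact permutation p = 0.0958, adjusted p = 0.288) and rho = 0.77 (exact permutation p = 0.103, adjusted p = 0.308). Within the control group, r was -0.18 (exact permutation p = 0.711, adjusted p = 0.794) and rho 0.43 (exact permutation p = 0.419, adjusted p = 1). The difference between the groups in this relation was not tested. Treated animals 2, 5 and 6, the highest in LOC102407663, were also the highest in LOC102408665, with 10.1, 10.5 and 18.2 FPKM. Without the 2 animals of each group of 6 farthest from the median of LOC102408665, r was 0.94 in the treated and -0.79 in the control group. So few animals remained that these r are descriptions only, and they were not tested.

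LOC102408976 had no detectable relation to either of the other members. With LOC102408665 it had r = -0.28 (permutation p = 0.433, adjusted p = 0.650) and rho = -0.23 (permutation p = 0.517, adjusted p = 0.775), and r was -0.29 without the 2 animals farthest from the median. With LOC102407663, r was -0.01 (permutation p = 0.969, adjusted p = 0.969) and rho -0.06 (permutation p = 0.898, adjusted p = 0.898). Without the 2 farthest animals, this r was -0.16. Treated animals 1 and 4 were among the highest 3 in LOC102408976 and within the control range in LOC102407663, and treated animal 5 was within the control range in LOC102408976 and among the highest 3 in LOC102407663. With 12 animals, a moderate relation of either sign would not have been detected.

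**Figure D3:**
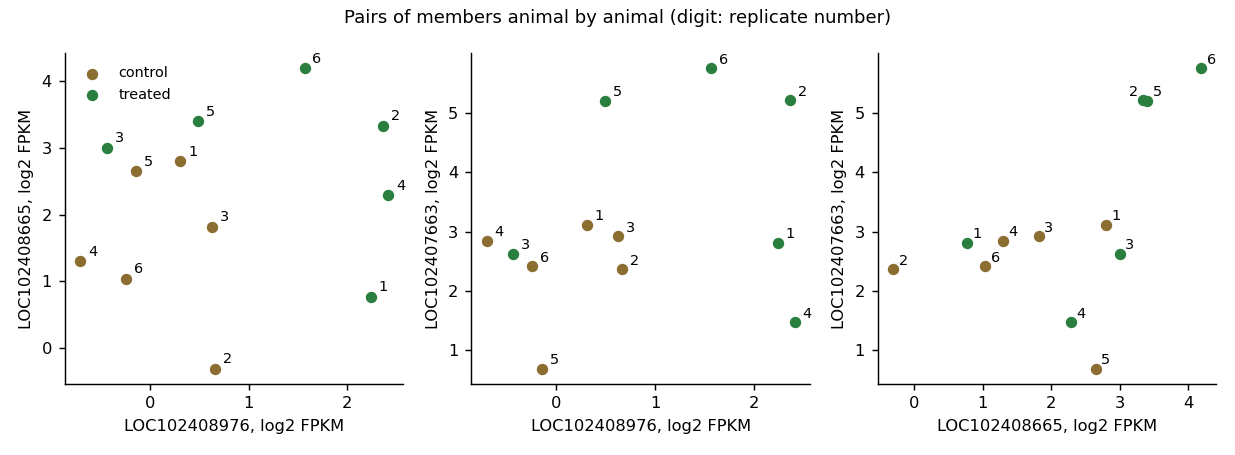
Log2 FPKM of each pair of members in the 12 animals, with control and treated animals in separate colours and the replicate number beside each point. Treated animals 2, 5 and 6 lie together at the upper right of LOC102408665 against LOC102407663, and no such line appears for LOC102408976, whose r is -0.28 with LOC102408665 and -0.01 with LOC102407663.

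The plots of the pairs also show how far these genes were from being each other's nearest pattern. Among the tested genes ranked by Pearson's r with LOC102408976, taken on values centred by group, LOC102407663 held place 8054 and LOC102408665 place 11694. LOC102407663 held place 1324 for LOC102408665, and LOC102408665 place 1278 for LOC102407663. The 10 genes with the pattern most like the mean of the 3 standardised members over the 12 animals were CD99L2, C6H1orf52, C5H1orf53, MMACHC, TOPORS, METAP1D, ELP6, DBNDD2, FAF2 and RPP40. Their r ran from 0.91 for CD99L2, a cell adhesion protein related to CD99, down to 0.79. MMACHC is an enzyme of cobalamin processing and TOPORS a ubiquitin and SUMO ligase. None of the 10 is on the lists of interferon genes described below. As the highest of 12742 values, these r are a description only.

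The genes around the members were compared with them next. DDX24, an RNA helicase next to LOC102407663, had 17.2 ± 2.90 FPKM (SD, n = 6) in the control and 17.7 ± 2.87 FPKM (SD, n = 6) in the treated group. OTUB2, a deubiquitinating enzyme one gene further on, had 37.2 ± 4.84 and 38.4 ± 8.08 FPKM (SD, n = 6 each). Their log2 differences of 0.04 and 0.03 did not pass the test (exact permutation p = 0.781 and 0.855, n = 6 per group; adjusted p of limma 0.9996 for both). Over the 12 animals centred by group, Pearson's r of DDX24 was 0.59 with LOC102408665, 0.41 with LOC102407663 and 0.06 with LOC102408976, the first 2 of which exceeded the 0.39 between LOC102408665 and LOC102407663. For OTUB2 the r were 0.20, -0.11 and 0.26, and all 6 are descriptions without a test. LOC102409849, between LOC102408665 and LOC102407663, had 0 reads in every control and at most 2 in a treated animal. LOC102409513, on the other side of LOC102408976, had at most 9 reads in any animal. PPP4R4, a phosphatase subunit, had at most 24 reads and the protease inhibitor SERPINA10 at most 1, and CCDC197 was listed at 0 in all 12 animals. These 5 genes were below the read minimum and were not tested.

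**Figure D4:**
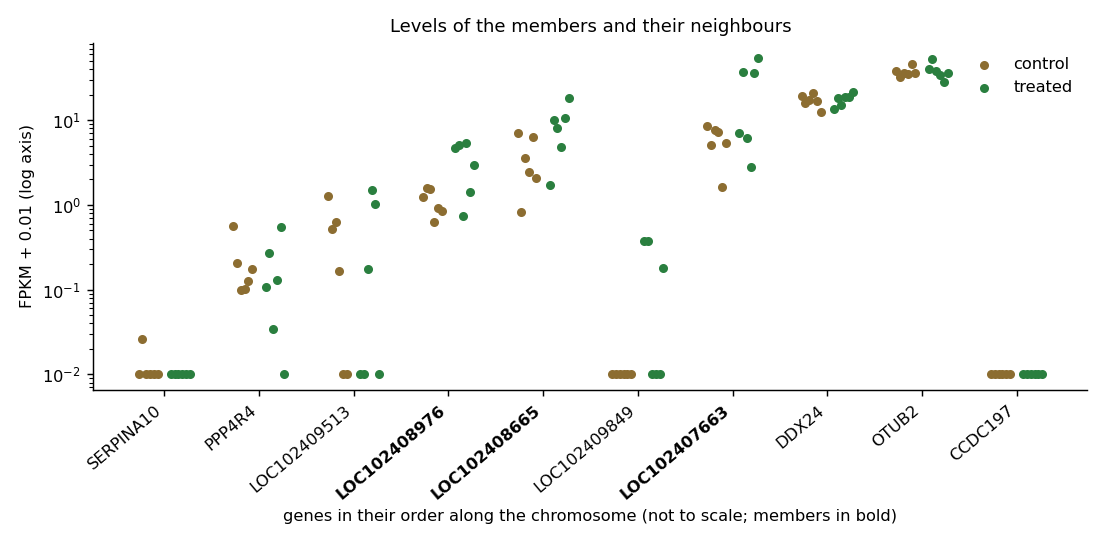
FPKM + 0.01 (log axis) of the 3 members and the neighbouring genes of the table in their chromosomal order, not to scale, with 1 point per animal and the members in bold. DDX24 and OTUB2 lie close together in control and treated animals, with group means of 17.2 and 17.7 FPKM and of 37.2 and 38.4 FPKM, whereas the members spread over a wide range.

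As the plot of the neighbourhood shows, DDX24 and OTUB2 did not have the wide spread of the members beside them. Other genes of the interferon response were then examined by lists that run from the ligands to the effectors. The lists hold 93 symbols, and they matched 73 different genes of the table, of which 52 were tested by limma among 12742 genes. A few of the other symbols are synonyms of a matched gene, but most had no match and were not examined. Among these were IFIT1, IFITM1, IFITM2, IFITM3, IFI16, USP18, GBP2, GBP4, GBP5, PLSCR1, SAMD9 and SP100. Of the 56 effector symbols, 41 were matched and 26 were tested. Over all genes, 162 (1.27%) had a nominal p-value below 0.05, 102 (0.801%) higher and 60 (0.471%) lower in treated animals, and 0 (0%) had an adjusted p-value below 0.05, the smallest being 0.9996. With voom on the recovered reads, 145 genes were below 0.05 before adjustment and 0 after it. The number of nominal calls was 331 without treated replicate 6. Their direction was not stable, with 83 higher and 103 lower without treated replicate 4, 95 and 101 without treated replicate 5, and 271 and 291 when all genes above 0 were tested. Of the 52 interferon genes, 2 were nominally higher, IFI44L and TRIM14, 0 were nominally lower and 0 passed after adjustment. Their median log2 difference was -0.02, against 0.01 over all genes, and 22 of the 52 (42.3%) were higher in treated animals, against 51.2% of all genes.

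Of the 6 ligand symbols 4 were matched, and these genes were hardly detected. No interferon alpha gene was on the list, so those ligands were not examined. IFNB1 and IFNW1 were not matched, the lambda interferon gene IFNL3 and the keratinocyte interferon gene IFNK were listed at 0 in all animals, the type II interferon gene IFNG had at most 1 read, and IFNE, an epithelial type I interferon, at most 14. All 9 receptor and kinase genes were tested, and none passed even a nominal p-value, with a median log2 difference of -0.06. IFNAR1, a chain of the type I interferon receptor, had 7.36 ± 1.56 FPKM (SD, n = 6) in control and 6.14 ± 1.02 FPKM (SD, n = 6) in treated animals (exact permutation p = 0.145). The 9 transcription factors likewise had no nominal call and a median log2 difference of 0.03. For IRF7, which amplifies type I interferon production, the means were 12.3 ± 2.49 and 13.4 ± 2.72 FPKM (SD, n = 6 each, exact permutation p = 0.524). IRF9, a transcription factor of the type I interferon signal, had 1.75 ± 0.286 and 2.18 ± 0.748 FPKM (SD, n = 6 each, exact permutation p = 0.39). The 8 tested sensors and adaptors, which detect foreign nucleic acid, had no nominal call and a median of -0.10.

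The 26 tested effectors had log2 differences from -0.72 to 0.95 around a median of -0.01. IFI44L, an interferon-induced gene often read together with IFI27, was at the upper end. Its FPKM were 0.684, 0.754, 0.241, 0.523, 0.637 and 0.853 in control animals 1 to 6 and 1.27, 1.10, 0.552, 1.88, 0.856 and 1.53 in treated animals 1 to 6. Treated animal 3 was within the control range, and the other 5 exceeded the highest control. For treated animal 5, with 26 reads, the excess over control animal 6, with 23 reads, was within counting error. The gene had only 8 to 58 reads per animal. The share of all genes with 5 treated animals above the highest control is not given here. Its log2 difference was 0.95 ± 0.36 (SE, exact permutation p = 0.0238, n = 6 per group), but its adjusted p of limma was 0.9996. Without treated replicate 4 the nominal limma p was 0.0504. Treated animals 1, 2, 4 and 6 were the 4 highest in both IFI44L and LOC102408976, and treated animal 3 was the lowest treated animal in both. Shared high places among all 12 animals reuse the difference between the diets, for which LOC102408976 was chosen, and are no sign of a relation. Over 12 animals centred by group, Pearson's r of IFI44L was 0.46 with LOC102408976, -0.19 with LOC102408665 and -0.13 with LOC102407663, given as descriptions without a test.

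TRIM14, an adaptor of antiviral signalling, had 3.82 ± 0.905 FPKM (SD, n = 6) among controls and 5.25 ± 1.12 FPKM (SD, n = 6) among treated animals. Only 2 treated animals exceeded the highest control. Its log2 difference of 0.46 had an exact permutation p of 0.0368 and an adjusted p of limma of 0.9996, and it lost its nominal call when any 1 of 5 animals was left out. MX1, a GTPase that blocks viruses and a standard marker of interferon exposure, had 1.71 ± 1.24 and 1.60 ± 0.983 FPKM (SD, n = 6 each, exact permutation p = 0.935). For RSAD2, the antiviral enzyme viperin, the values were 0.668 ± 0.287 and 0.748 ± 0.357 FPKM (SD, n = 6 each, exact permutation p = 0.799). ISG15, a ubiquitin-like modifier, had between 0 and 13 reads per animal and was not tested. IFI6, a relative of IFI27 that was added after its values were seen, had 0.710 ± 0.48 and 0.933 ± 0.597 FPKM (SD, n = 6 each) from at most 32 reads, and was not tested either.

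**Figure D5:**
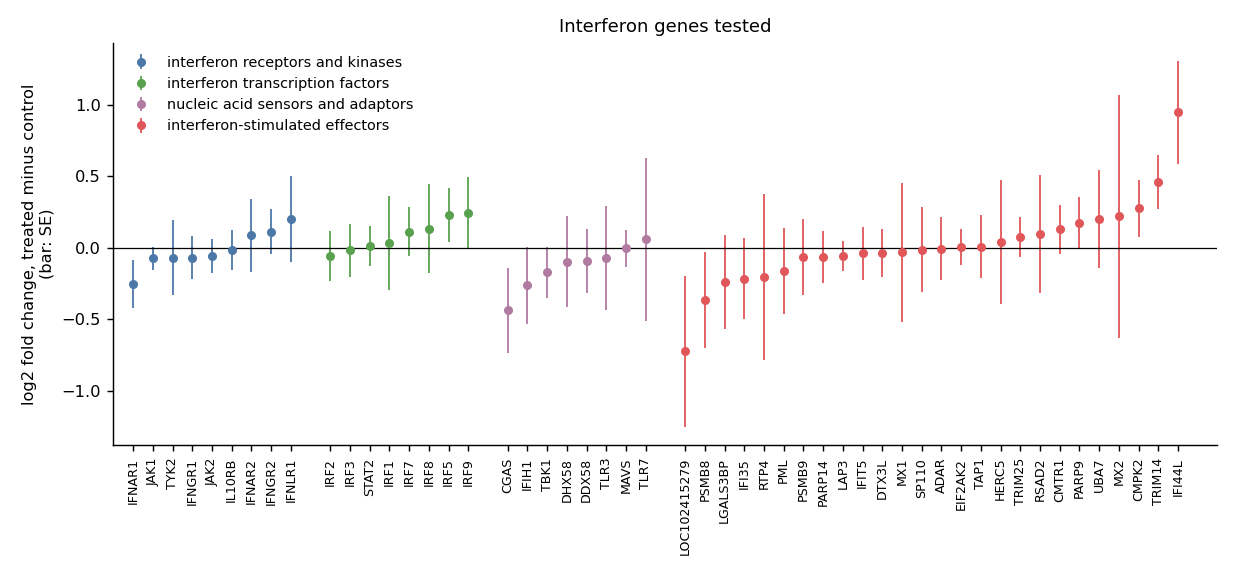
Log2 difference (treated minus control) of the interferon genes tested by limma, all but 1 of 52, grouped into receptors and kinases, transcription factors, sensors and adaptors, and effectors, with bars for the standard error (LOC102415279 is annotated as HERC6). Most genes lie near 0, with a median of -0.02 over the 52, and IFI44L at 0.95 and TRIM14 at 0.46 are the 2 with a nominal p-value below 0.05.

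The log2 differences of the members were 1.35, 1.28 and 1.45. The plot of the interferon genes is no scale for these values, since the members were chosen for their difference between the diets. Across the 12 animals, the 52 genes had a median r of 0.11 with LOC102408976, -0.16 with LOC102408665 and -0.05 with LOC102407663, on values centred by group. The corresponding medians over all genes tested were 0.06, -0.07 and -0.02. The r was above 0 for 38 of the 52 genes (73.1%) with LOC102408976, for 18 (34.6%) with LOC102408665 and for 25 (48.1%) with LOC102407663, against 60.9%, 43.7% and 47.5% of all genes. With LOC102408976, r ran from -0.48 for LOC102415279 (HERC6) to 0.55 for RSAD2. With LOC102408665 it ran from -0.60 for PML to 0.34 for IFNGR2, and with LOC102407663 from -0.70 for EIF2AK2 to 0.47 for IFI35. These ends were named after their values were seen.

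The tissue label was checked against marker genes, and the summed marker levels were set beside the members. All 10 matched epithelial markers, keratins and desmosomal genes among them, were expressed, with a sum of 4001 to 6840 FPKM in control and 4021 to 7233 FPKM in treated animals. Smooth muscle markers summed to 28.8 to 49.9 FPKM in control and 15.8 to 40.9 FPKM in treated animals, and 1 of their 7 tested genes, the intermediate filament gene DES, was nominally lower. T cell markers summed to 16.1 to 32.9 and 12.2 to 34.1 FPKM, and macrophage and dendritic cell markers to 30.9 to 52.9 and 28.1 to 52.6 FPKM, in control and treated animals. B and plasma cell markers summed to 2.04 to 12.6 and 0.536 to 10.5 FPKM, with CD79B and POU2AF1 at 0 in all animals. Fibroblast markers summed to 42.1 to 272 and 18.8 to 175 FPKM, and endothelial markers to 9.80 to 33.4 and 6.86 to 34.0 FPKM. The smooth muscle sum had medians of 36.3 FPKM among controls and 24.8 FPKM among treated animals. Treated animals 1, 2, 3 and 6, with 23.9, 23.4, 25.8 and 15.8 FPKM, lay below the lowest control. The share of all genes with as many treated animals below the controls is not given here. Animals 2 and 6, the only ones above the controls in all 3 members, had the lowest sums. However, animals 1 and 3, above the controls in 1 member each, had sums close to that of animal 2. In the other 6 lists at most 2 treated animals lay below the lowest control and at most 1 above the highest. Over the 12 animals centred by group, the 21 relations of the 7 sums to the 3 members had r between -0.39 and 0.52, 0 had a permutation p below 0.05, and the smallest adjusted p was 0.937. For the smooth muscle sum, r was 0.07 with LOC102408976, -0.04 with LOC102408665 and -0.31 with LOC102407663. Whether cell composition had a part in the levels of the members was not tested beyond these relations.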

How the data were processed

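Ruminal wall RNA of 12 buffaloes was sequenced as stranded paired ends. Per the submitters' notes and the study's methods, the authors checked reads with FastQC 0.11.5, trimmed them with Trimmomatic 0.39, aligned them to UOA_WB_1 with STAR 2.5.2b and counted them per gene, by strand and with a mapping quality filter, with featureCounts 2.0.0. The authors deposited FPKM for 34037 genes, unfiltered; the tool and gene lengths behind the FPKM are not given in the sources used here. Of 16 sample columns, 12 matched the labels and 4 were not used. Whole reads were recovered for all 22972 genes above 0 (100% of values within 0.0001 of a whole read), which gave depths of 10531541 to 12948372 fragments and the counting intervals.

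Differences were tested with limma 3.58.1 in R 4.3.3 (eBayes with a trend) on log2(FPKM + 0.01), and p-values were adjusted by Benjamini-Hochberg across the 12742 genes with at least 40 depth-scaled reads in at least 1 animal. For low genes a fold change on this scale depends on the pseudocount, above all where an animal had 0 reads. For named genes, a two-sided exact permutation test over 924 assignments was used, whose smallest possible p is 0.00216. Python 3.11.15, numpy 2.4.6, scipy 1.17.1, pandas 2.3.3 and matplotlib 3.10.9 served for the rest. Methods were tested on simulated data. Groups and replicate numbers were taken from the sample descriptions, and animals of a group are separate animals, sampled once each.

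The members and the gene lists were chosen with earlier results of these data known. Named genes are the members, the 3 annotated genes on each side of them, interferon genes with a nominal p below 0.05, a fixed set of interferon markers (IFI44L, ISG15, MX1, RSAD2, IRF7, IRF9, IFNAR1 and 1 gene that is not reported here), and the 10 genes most correlated with the mean of the members. DES, the ligands and the ends of the r ranges were named after their values were seen. Alternatives were pseudocounts of 0.1 and 1, other filters, median ratio scaling, voom on the recovered reads, the replicate number as a block, the log2 ratio of the means and each animal left out. No genome of the authors' build was used, so no coordinates or sequences are given.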

Additional observations from a re-analysis of the deposited data

How the results depend on the processing

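The log2 difference of the members kept its direction under every alternative run and moved by less than the standard deviation between animals. That margin was wide, at 0.91 for LOC102408976, 1.16 for LOC102408665 and 1.39 for LOC102407663. As the members were chosen for this difference, its persistence is a description and no support for it. With each animal left out it ranged from 1.16 to 1.72 for LOC102408976, from 0.91 to 1.69 for LOC102408665 and from 1.07 to 1.92 for LOC102407663. The r of LOC102408976 and LOC102407663 changed sign, with 0.02 without control replicate 4, 0.07 without treated replicate 1, 0.27 without treated replicate 4 and 0.12 without treated replicate 5, in a range from -0.34 to 0.27. That of LOC102408665 and LOC102407663 ranged from 0.25 to 0.62 and had an unadjusted p below 0.05 without control replicate 5, and that of LOC102408976 and LOC102408665 from -0.35 to -0.12. Nominal calls over all genes numbered 562 with all genes above 0, 301 when 6 or more animals had to reach 0.1 FPKM and 145 to 331 with an animal left out, the highest without treated replicate 6, against 162. Nominal interferon genes numbered 4 under both of these filters, which added ZBP1 (higher) and CXCL10 (lower), and 1 to 3 with an animal left out, against 2; IRF9 was added without treated replicate 6 and CMPK2 without control replicate 6. Adjusted calls remained 0 under each alternative.

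Replicate numbers follow the sample descriptions. The sample titles number the animals in part otherwise, and no control and treated animal with the same replicate number share a title number. Animals with the same replicate number are different animals. Their deviations correlated at -0.01 to 0.41, above 0.1 in 4 of 6 pairs, with a mean of 0.21. For animals with different numbers the mean was -0.04, and 8 of 12 animals correlated best with their own number. The main fit and the permutation tests did not take the numbers as pairs, and do not account for what same-numbered animals may share. With the replicate block, 325 genes had a nominal p-value of limma below 0.05, against 162 without it. What lies behind this likeness was not tested. Depth limits LOC102408976 most, with 7 to 18 reads in control animals.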
